A study of Mus musculus with 4 samples.

Results

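Chromatin accessibility was followed at 10 genes of the Notch pathway in mouse bone mesenchymal stem cells (MSCs). The genes were the receptors Notch1, Notch2 and Notch3, the ligands Jag1 and Dll1, the DNA-binding factor Rbpj, and the target genes Hes1, Hey1, Hey2 and Heyl. Every peak that overlapped the span from 10 kb before the start to 10 kb past the end of one of these genes (GENCODE M21, mouse build mm10) was taken, whatever its signal. This gave 97 of the 128055 peaks of the ATAC-seq table. ATAC-seq marks open DNA by the sites at which the Tn5 transposase can insert sequencing adapters, so its signal reads the accessibility of a gene and not its expression.

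The cells were grown out of collagenase-treated chips of hind-limb bone from wild-type C57BL/6 N mice aged 3 to 5 months and sorted as Sca-1+, CD140a+, CD45- and TER-119-, and the labels call them bone-marrow MSCs. Per the paper, the sorted population was split into 2 groups. These were held for 7 days in hypoxia (2% O2, 2 libraries) or in normoxia (21% O2, 2 libraries), with 50000 cells per library. Whether libraries of the same number came from the same sort is not stated. The hypoxia samples are the reference, because the cells had been isolated and expanded at 2% O2, and nothing else is stated to differ between the groups. The study describes 2 biologically independent experiments, while the labels do not name the mice behind each library.

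Notch receptors sit in the cell membrane and are switched on by Jagged or Delta ligands carried by a neighbouring cell. Proteases then release the intracellular part of the receptor, which enters the nucleus, binds the DNA-bound factor RBPJ together with Mastermind proteins and turns on Hes and Hey genes, whose products are transcriptional repressors. In bone, Notch signalling is known for holding skeletal progenitors undifferentiated and restraining osteoblast formation, which is why oxygen-dependent accessibility of its genes in MSCs is of interest.

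The 97 peaks were spread unevenly. Rbpj, whose longest annotated transcript spans a long locus, held 36, Notch2 21, Notch1 10, Notch3 9, Jag1 7, Dll1 and Heyl 5 each, Hey2 2, and Hes1 and Hey1 a single peak each. By position, 13 were promoter peaks (within 1 kb of a start of a protein-coding transcript of the member), 16 touched an exon, 47 lay in introns, 9 upstream and 12 downstream of the gene. None of the 97 lay at the promoter of another protein-coding gene.

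The sequences under the called peaks are shown because the results turn on these regions. For Jag1 and Hey2 the stretch runs 5′ to 3′ on the gene's strand from 250 bases before the RefSeq start to the last base before the GENCODE gene (126 and 232 bases, Jag1 chr2:137116645-137116770 and Hey2 chr10:30842802-30843033, both minus strand, build GRCm38, the assembly of mm10). For the other called peaks it is the central 300 bases on the plus strand (Notch1 upstream peak chr2:26525701-26526000, lower Rbpj intron peak chr5:53485801-53486100, higher Rbpj intron peak chr5:53637051-53637350). All come from RefSeq. Capitals mark, on either strand, the RBPJ core motif TGGGAA, the AP-1 motif TGANTCA, and the core of the hypoxia response element, written as ACGTG or as GCGTG.
Jag1 promoter: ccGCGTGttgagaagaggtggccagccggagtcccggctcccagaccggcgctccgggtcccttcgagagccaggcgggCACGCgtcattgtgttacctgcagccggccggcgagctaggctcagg
Hey2 promoter: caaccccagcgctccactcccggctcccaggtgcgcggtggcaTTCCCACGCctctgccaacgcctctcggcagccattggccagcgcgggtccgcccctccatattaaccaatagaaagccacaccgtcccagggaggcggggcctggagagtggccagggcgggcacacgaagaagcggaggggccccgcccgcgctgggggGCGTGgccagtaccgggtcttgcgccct
Notch1 upstream peak, lower in normoxia: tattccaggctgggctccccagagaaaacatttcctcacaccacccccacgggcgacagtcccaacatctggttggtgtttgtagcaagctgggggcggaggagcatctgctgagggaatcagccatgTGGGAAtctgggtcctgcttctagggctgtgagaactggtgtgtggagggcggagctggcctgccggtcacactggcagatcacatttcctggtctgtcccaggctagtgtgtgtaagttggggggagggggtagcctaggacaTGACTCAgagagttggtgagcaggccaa
Rbpj intron peak, lower in normoxia: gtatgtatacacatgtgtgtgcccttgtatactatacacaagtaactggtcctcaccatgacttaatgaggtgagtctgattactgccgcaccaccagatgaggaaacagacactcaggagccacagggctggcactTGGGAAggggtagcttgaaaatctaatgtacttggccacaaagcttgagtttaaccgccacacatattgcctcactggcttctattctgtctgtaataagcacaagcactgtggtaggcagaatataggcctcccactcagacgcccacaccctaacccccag
Rbpj intron peak, higher in normoxia: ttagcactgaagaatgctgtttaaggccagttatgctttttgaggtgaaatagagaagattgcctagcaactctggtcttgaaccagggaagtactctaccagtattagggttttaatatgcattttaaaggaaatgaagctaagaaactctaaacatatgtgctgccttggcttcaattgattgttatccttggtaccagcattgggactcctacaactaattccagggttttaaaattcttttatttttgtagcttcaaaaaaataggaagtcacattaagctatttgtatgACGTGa

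In the full 250 bases before the RefSeq start, Jag1 held 2 GCGTG matches and no TGGGAA, and Hey2 held 3 GCGTG matches and 1 TGGGAA match, which extends to GTGGGAA and overlaps a GCGTG match. Among all 32851 such 250-base stretches, 28.16% held GCGTG, 21.59% TGGGAA and 5.42% GTGGGAA. The centre of the Notch1 upstream peak held 1 GTGGGAA and 1 AP-1 match, and the centre of the lower Rbpj intron peak held 1 TGGGAA. Of the 97 member peaks, 33 held TGGGAA in their central 300 bases (34.02%, against 28.71% of 128048 nuclear peaks) and 15 held an AP-1 match (15.46% against 20.57%). A match describes letters and is no evidence that a factor binds there. Of the 10 genes, 7 were in the promoter table used, and Hes1, Hey1 and Heyl were not among them.

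The libraries were similar in depth (26680936 to 29965523 reads in total) but not in the share of reads in nuclear peaks, where the hypoxia libraries had 49.2% and 53.2% against 31.0% and 35.2% for normoxia. Mitochondrial peaks took 7.77% and 9.13% of hypoxia reads and 1.50% and 2.34% of normoxia reads, and the part of these shares in the results was not tested. The median member peak held 91 and 94 reads per hypoxia library against 59 and 74 per normoxia library. Values below are scaled signals, that is, the deposited signal of a peak divided by a size factor of its library (1.13 and 1.23 for hypoxia, 0.81 and 0.886 for normoxia), which sets the median peak at no change (median log2 fold change, normoxia over hypoxia, of -0.004 over all peaks). As deposited, that median was -0.44, so a scaled difference is a difference relative to the typical peak. In cells measured in bulk, fewer cells open at a site and less opening per cell cannot be told apart. Of 7 mesenchymal marker genes 6 had a promoter peak (Lepr had none), with a summed scaled signal of 1336 to 1364 in hypoxia and 1030 to 1077 in normoxia. Of the other marker lists, 3 of 6 blood genes (132 to 136 and 133 to 137), 3 of 6 endothelial genes (71.4 to 76.1 and 64.3 to 78.3) and 5 of 6 mural genes (533 to 559 and 469 to 488) had such a peak. The leukocyte marker Ptprc and the endothelial markers Cdh5, Tie1 and Emcn had none in the table, and the part of these markers was not tested either.

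Across the Notch genes, differences were mostly small, and after scaling to the typical peak they were more often negative than positive. At a false discovery rate (FDR) under 0.01, limma called 4 of the 97 peaks lower in normoxia (4.12%, against 4.57% of all peaks) and 1 higher (1.03%, against 1.77%). Both shares were close to those of the whole table, so the Notch genes as a group were not called more often than other sites. The peaks called lower were the Jag1 promoter, the Hey2 promoter, a distal peak upstream of Notch1 and an intronic peak of Rbpj, and the peak called higher was a different intronic peak of Rbpj. The log2 fold change was negative in 67 peaks and positive in 30, with a median of -0.19. Over all peaks the median was -0.004, with 64479 negative and 63545 positive. In 43 of the 97 peaks the highest normoxia value was under the lowest hypoxia value (44.3%, against 29.6% of all peaks) and in 14 the lowest normoxia value was over the highest hypoxia value (27.4% of all peaks). Members were stronger than the table as a whole (median deposited signal 28.1 against 14.3), so shares at like signal are given below. At an unadjusted p under 0.05, 25 of the 97 were lower (16.8% of all peaks were) and 5 higher (12.5% of all peaks). The size of the member median followed the scaling of the libraries, and among the scalings used its sign changed only at equal totals. Equal totals give all libraries the same total over all peaks, mitochondrial ones included, and the part of those in the outcome was not tested. At this scaling the member median was 0.094 with 1 peak called lower and 4 higher, beside a median of 0.26 over all peaks. As deposited it was -0.63 with 35 lower and 0 higher, beside -0.44 over all peaks.

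The calls rested on both hypoxia libraries. Without hypoxia library 1, limma called 0 of the 97 peaks and 0 of the whole table (18 of the 97 and 18.8% of all peaks had an unadjusted p under 0.05). The same held without hypoxia library 2 (22 of the 97, 19.0% of all peaks) and without the trend term of the variance model (15 of the 97, 22.4% of all peaks). Without normoxia library 1 or without normoxia library 2 calls remained, 4 and 8 lower and 0 higher. In edgeR on the reads recovered from the signal, with all libraries, 6 member peaks were lower (5.7% of all peaks were) and 2 higher (2.54% of all peaks), among them all 5 called by limma.

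**Figure D1:**
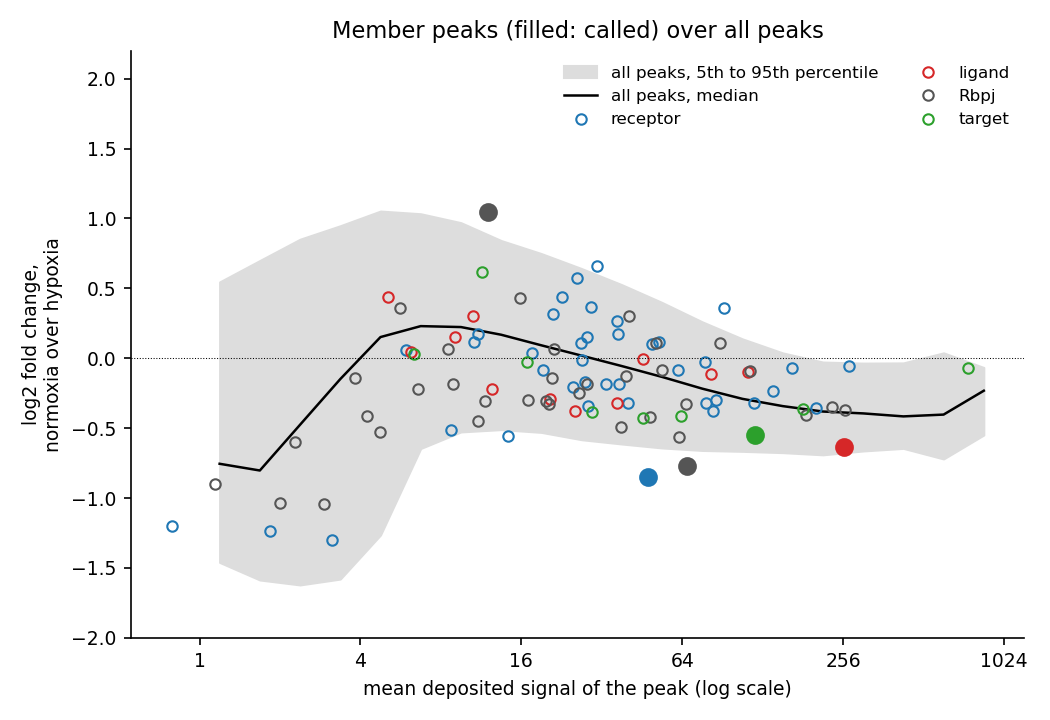
Log2 fold change (normoxia over hypoxia, scaled signal) of the 97 member peaks against their mean deposited signal on a log axis, coloured by role, with the 5 called peaks filled. The line and the grey band are the median and the 5th to 95th percentile of all peaks of like signal, and most member peaks sit inside the band and follow its fall from weak to strong peaks.

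The plot of fold change against signal shows that strong peaks of the whole table were lower in normoxia than weak ones. Of the 96 members set against all peaks of like signal, 3 lay below the 5th percentile and 3 above the 95th. Among members with a mean deposited signal of at least 50, the median was -0.30 (29 peaks), against -0.27 for all peaks of that strength. Of these 29, 3 were called lower (10.3%, against 19.6%), and 19 had both normoxia values under both hypoxia values (65.5%, against 66.4%). Members between 10 and 50 had a median of -0.14 (48 peaks, all peaks 0.07). Of these 48, 1 was called lower (2.08%, against 1.45%), and 16 had both normoxia values under both hypoxia values (33.3%, against 21.3%). Of the 20 members under 10, 7 were short pieces that the peak caller had assigned to hypoxia only, each adjoining another peak of the table, and their negative sign follows from that assignment. The other 13 had a median of 0.03, against 0.21 for all peaks of that strength assigned to both groups. Without the 7 pieces the median of all members was -0.14 (90 peaks, 60 of them negative), against 0.03 over all such peaks, and the calls were the same 4 lower and 1 higher.

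Promoter peaks carried the most uniform pattern. All 13 had a negative log2 fold change, with a median of -0.36. Over all 17661 promoter peaks the median was -0.27, and 13833 were negative. A 100-bp piece at Notch2 was assigned to hypoxia only, and the other 12 had a median of -0.34, against -0.25 over promoter peaks of both groups. The groups were apart, with normoxia the lower, in 10 of the 13 (76.9%, against 60.3% of all promoter peaks). Limma called 2 of 13 lower (15.4%, against 16.7%) and 0 higher (0.442% of all promoter peaks). None of the 13 was higher at an unadjusted p under 0.05 (3.88% of all promoter peaks were) or in edgeR (0.713%), and 6 were lower at an unadjusted p under 0.05 (44.1%). The negative sign of the promoters was thus shared with promoters in general.

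**Figure D2:**
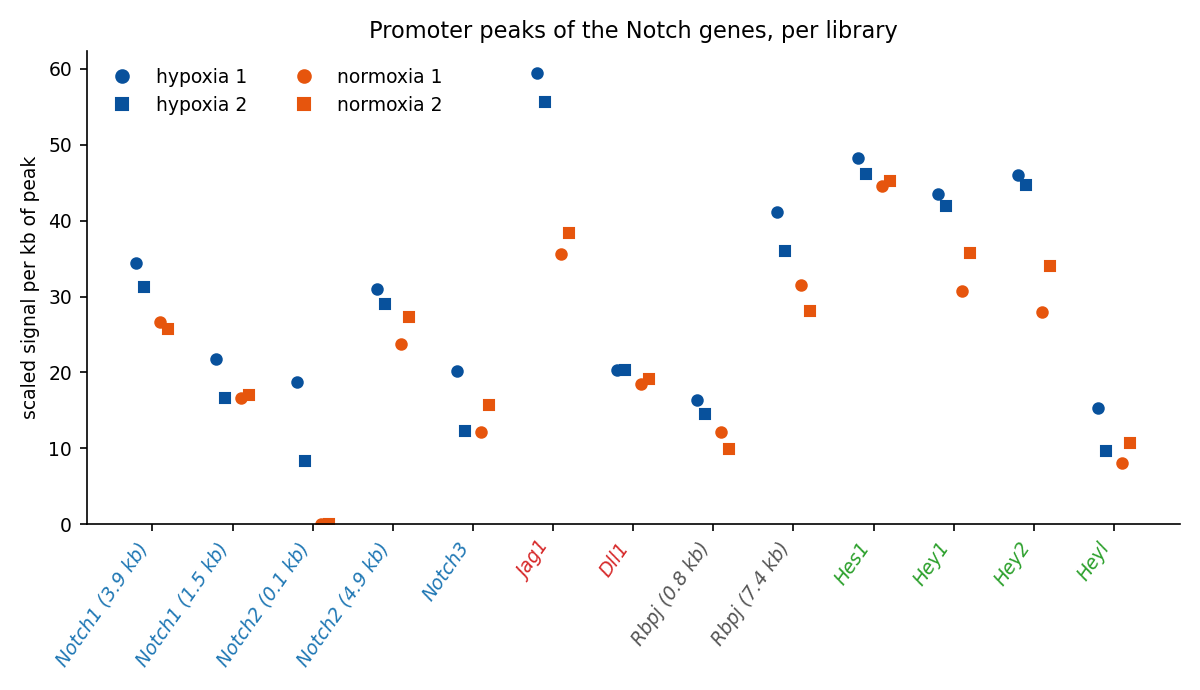
Scaled signal per kb of peak in each of the 4 libraries for the 13 promoter peaks of the Notch genes (blue hypoxia, orange normoxia, circles library 1, squares library 2, gene names coloured by role). Jag1 drops from 55.6 and 59.4 in hypoxia to 35.6 and 38.3 in normoxia, while Hes1 stays between 44.6 and 48.2 in all libraries.

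Per kb, the promoters formed a graded range, in which the Hes1 value is a mean over a 16-kb peak. In hypoxia the Jag1 promoter was the most open of the 13, at 59.4 and 55.6 scaled signal per kb, followed by Hes1 (48.2 and 46.2), Hey2 (46.0 and 44.7) and Hey1 (43.5 and 42.0). Neighbours among Hes1, Hey2 and Hey1 differed by about as much as their replicates, whereas Jag1 stood clear of them. The main Rbpj promoter was at 41.1 and 36.0. The receptors were lower, with 34.4 and 31.3 at the main Notch1 promoter, 31.1 and 29.0 at Notch2 and 20.1 and 12.3 at Notch3, and Dll1 (20.4 and 20.3) and Heyl (15.4 and 9.69) were among the weakest. In normoxia the order changed at the top. Hes1 came first (44.6 and 45.3), Jag1 (35.6 and 38.3) overlapped with Hey1 (30.8 and 35.7), and Hey1 overlapped with Hey2 (27.9 and 34.0) and Rbpj (31.5 and 28.1).

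Among the receptors, no promoter peak passed the test, and the called peak lay at a distance. Notch1, a receptor broadly used in stem cell compartments, had 2 promoter peaks. The one over the inner start (chr2:26500801-26504700) gave scaled signals of 134 and 122 in hypoxia against 104 and 101 in normoxia. The groups did not overlap, and the log2 fold change was -0.32 (SE 0.12, limma adjusted p = 0.0760). The one over the outer start (chr2:26515601-26517100) gave 32.7 and 24.9 against 25.0 and 25.6, which overlapped (-0.17, SE 0.20, adjusted p = 0.616).

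The upstream Notch1 peak (chr2:26525101-26526600), 8438 bp before the outer start, fell. It measured 53.6 and 61.2 in hypoxia against 26.8 and 36.5 in normoxia, and the log2 fold change was -0.85 (SE 0.17, limma adjusted p = 0.00123). This was a larger drop than at either Notch1 promoter and than the median of all peaks of like signal (-0.13, 5th percentile -0.64). The call was kept when the libraries were scaled by cyclic loess, which removes any trend with signal (-0.76, adjusted p = 0.00443). It was lost narrowly under quantile scaling (-0.78, adjusted p = 0.0107), at equal totals (-0.57, adjusted p = 0.0201) and without normoxia library 1 (-0.63, adjusted p = 0.0187). The strongest other Notch1 peak, in an intron (chr2:26492801-26495500), stood at 95.7 and 87.8 against 74.5 and 73.8 (-0.30, SE 0.13, adjusted p = 0.125).

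An exonic Notch1 peak (chr2:26496701-26500600), mentioned after its values were seen, ran the other way. It measured 25.6 and 23.0 in hypoxia against 42.1 and 35.8 in normoxia (0.66, limma adjusted p = 0.0160), which edgeR placed just under the threshold (0.68, adjusted p = 0.00999). Set within each library against the inner Notch1 promoter, a ratio that a single factor per library leaves unchanged, its signal was 0.191 and 0.188 of the promoter's in hypoxia and 0.404 and 0.356 in normoxia. The exonic peak was picked for its rise and that promoter was itself lower (-0.32), so a rise of this ratio follows from the choice.

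Notch2 held the most receptor peaks and had no call. Its promoter peak (chr3:98012901-98017800) gave 152 and 142 in hypoxia against 117 and 134 in normoxia (-0.23, SE 0.12, limma adjusted p = 0.193), with no overlap between the groups. The 100-bp piece at its upstream edge (chr3:98012801-98012900), assigned to hypoxia only, rested on hardly any reads, with 1.87 and 0.83 in hypoxia and 0 in both normoxia libraries. The strongest peak of the gene covered an exon (chr3:98104801-98112000) and gave 279 and 260 against 255 and 262, which overlapped (-0.06, SE 0.10, adjusted p = 0.747), although cyclic loess called it higher (0.36, adjusted p = 0.00819). An intronic peak (chr3:98032201-98040600), mentioned after its values were seen, gave 79.2 and 83.1 against 104 and 104 (0.36, adjusted p = 0.0573), above the 95th percentile of peaks of like signal (0.14). It was called higher at equal totals (0.65, adjusted p = 0.000752), under quantile scaling (0.61, adjusted p = 0.00472) and under cyclic loess (0.60, adjusted p = 0.0019). Of the 21 Notch2 peaks 11 were negative and 10 positive, with a median of -0.06 and 0 called at FDR under 0.01 by limma or edgeR (5 at an unadjusted p under 0.05).

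Notch3, a receptor known from mural cells and mesenchyme, had a modest promoter peak (chr17:32165001-32167400) with 48.3 and 29.6 in hypoxia against 29.2 and 37.7 in normoxia. The 2 hypoxia libraries lay farther apart than the group means (-0.19, SE 0.20, limma adjusted p = 0.574). Its strongest other peak, downstream of the gene (chr17:32116401-32119500), gave 83.9 and 84.4 against 58.8 and 77.2 (-0.32, SE 0.14, adjusted p = 0.137). The 9 Notch3 peaks ranged from -0.34 to 0.57 with a median of -0.09.

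The 2 ligands differed from each other. The Jag1 promoter peak (chr2:137113001-137118200), shown in sequence above, had the lowest adjusted p of all member peaks. Jag1 encodes a Jagged ligand made by osteolineage and stromal cells of the marrow. Its promoter fell from 309 and 289 in hypoxia to 185 and 199 in normoxia, a gap several times the distance between replicates. This was -0.64 on the log2 scale (SE 0.10, limma adjusted p = 0.000116), and -1.11 as deposited.

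The Jag1 call was also made at equal totals, a scaling that moves the typical peak up by 0.26 in normoxia (-0.35, adjusted p = 0.00854). It was lost under quantile scaling (-0.26, adjusted p = 0.0689) and cyclic loess (-0.24, adjusted p = 0.0931), which both remove the lower signal of strong peaks in normoxia. All peaks of like signal had a median of -0.39, with a 5th percentile of -0.66. The drop at Jag1 was therefore in the lower part of the range of strong peaks and not outside it. The other 6 Jag1 peaks did not follow it, since they lay between -0.38 and 0.44 and none was called by limma or edgeR (0 at an unadjusted p under 0.05). The strongest of these, over the 3′ end of the gene (chr2:137074101-137081700), gave 114 and 115 against 103 and 111 (-0.10, SE 0.12, adjusted p = 0.631).

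Dll1, a Delta ligand, showed no such difference at its promoter. The peak (chr17:15374601-15378700) gave 83.6 and 83.1 in hypoxia against 75.9 and 78.3 in normoxia (-0.11, SE 0.13, limma adjusted p = 0.631). The groups did not overlap, but the gap was small, and the 95% interval of the difference ran from -0.38 to 0.16. Its strongest other peak, downstream (chr17:15365401-15366300), gave 44.6 and 34.3 against 30.1 and 32.4 (-0.32, SE 0.18, adjusted p = 0.248). Within each library, the Jag1 promoter carried 3.70 and 3.48 times the signal of the Dll1 promoter in hypoxia and 2.44 and 2.54 times in normoxia, and a single factor per library leaves these ratios unchanged. Under quantile scaling and cyclic loess, which are not such factors, Jag1 also lay below Dll1 (-0.26 beside 0.11 and -0.24 beside 0.11).

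**Figure D3:**
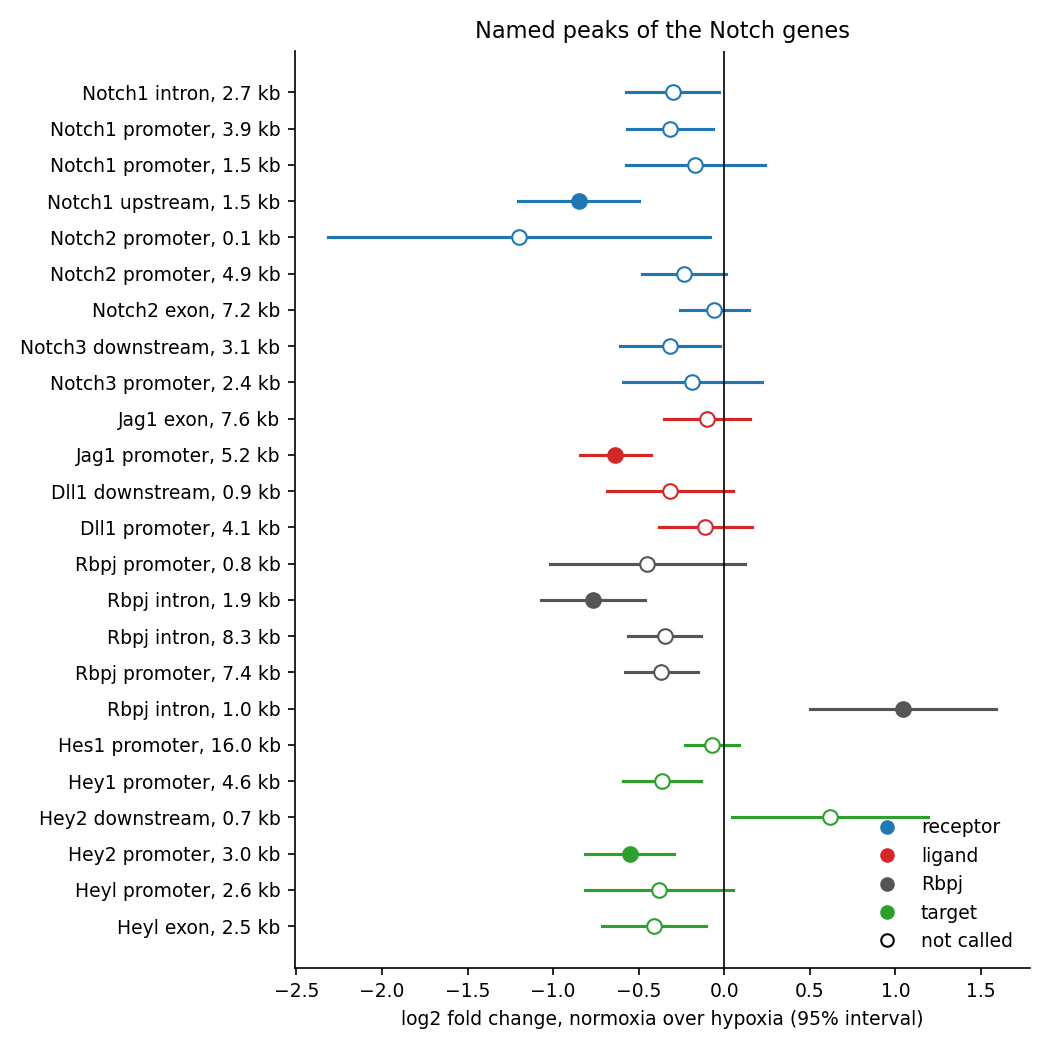
Log2 fold change (normoxia over hypoxia) with its 95% interval from limma for all promoter peaks, the strongest other peak and all called peaks of each Notch gene, coloured by role, with called peaks filled. Of the 5 filled points, 4 lie left of zero (Notch1 upstream, Jag1 promoter, Rbpj intron, Hey2 promoter) and the 1.0-kb Rbpj intron peak lies at 1.05.

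Rbpj, which encodes the DNA-binding factor through which all Notch receptors act, had 1 of its 36 peaks called lower and 1 called higher. After scaling to the typical peak 28 of the 36 were negative, beside 64479 of all 128055 peaks. The Rbpj median was -0.30, or -0.23 over the 32 peaks not assigned to hypoxia only, and at equal totals it was -0.026. The main promoter peak (chr5:53588401-53595800) gave 304 and 266 in hypoxia against 233 and 208 in normoxia. The groups did not overlap, and the log2 fold change of -0.37 (SE 0.11) missed the threshold (limma adjusted p = 0.0162). It was 0.0043 under quantile scaling and 0.036 under cyclic loess. The weak peak at the first start of the longest transcript (chr5:53466301-53467100) gave 13.1 and 11.6 against 9.72 and 7.91 (-0.45, SE 0.28, adjusted p = 0.296).

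The intronic peak called lower (chr5:53485001-53486900) lay 18849 bp into that longest transcript, ahead of the gene as RefSeq draws it. It fell from 75.5 and 82.8 in hypoxia to 42.6 and 49.7 in normoxia (-0.77, SE 0.15, limma adjusted p = 0.000769). The median of all peaks of like signal was -0.22 and their 5th percentile -0.66, and the call was kept under cyclic loess (-0.60, adjusted p = 0.00779) but not under quantile scaling (-0.62, adjusted p = 0.0138) or at equal totals (-0.48, adjusted p = 0.0198). Neighbouring peaks did not pass the threshold. The strongest intronic peak of the gene (chr5:53490101-53498400) gave 242 and 263 against 198 and 198 (-0.35, SE 0.10, adjusted p = 0.0218), and the peaks starting at 53469301 and 53508001 had adjusted p-values of 0.0103 and 0.0118. EdgeR called the last pair lower as well.

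The only member peak called higher by limma was a weak one in an intron 3′ of the main promoter (chr5:53636701-53637700). It measured 7.17 and 8.58 in hypoxia against 17.6 and 16.9 in normoxia, with replicates close together and the groups far apart (1.05, SE 0.27, limma adjusted p = 0.00779). Within each library its signal was 0.0236 and 0.0323 of that of the main Rbpj promoter in hypoxia and 0.0755 and 0.0815 in normoxia. The peak was picked for its call and that promoter was itself lower (-0.37), so a rise of this ratio follows from the choice. Its call was kept at equal totals (1.32, adjusted p = 0.00143). It was lost without either normoxia library (adjusted p = 0.0418 and 0.0250), as deposited (0.61, adjusted p = 0.0873), under quantile scaling (0.87, adjusted p = 0.0504), under cyclic loess (0.84, adjusted p = 0.0486), with a pseudocount of 0.1 (adjusted p = 0.0120) and without robust estimation (adjusted p = 0.0137).

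**Figure D4:**
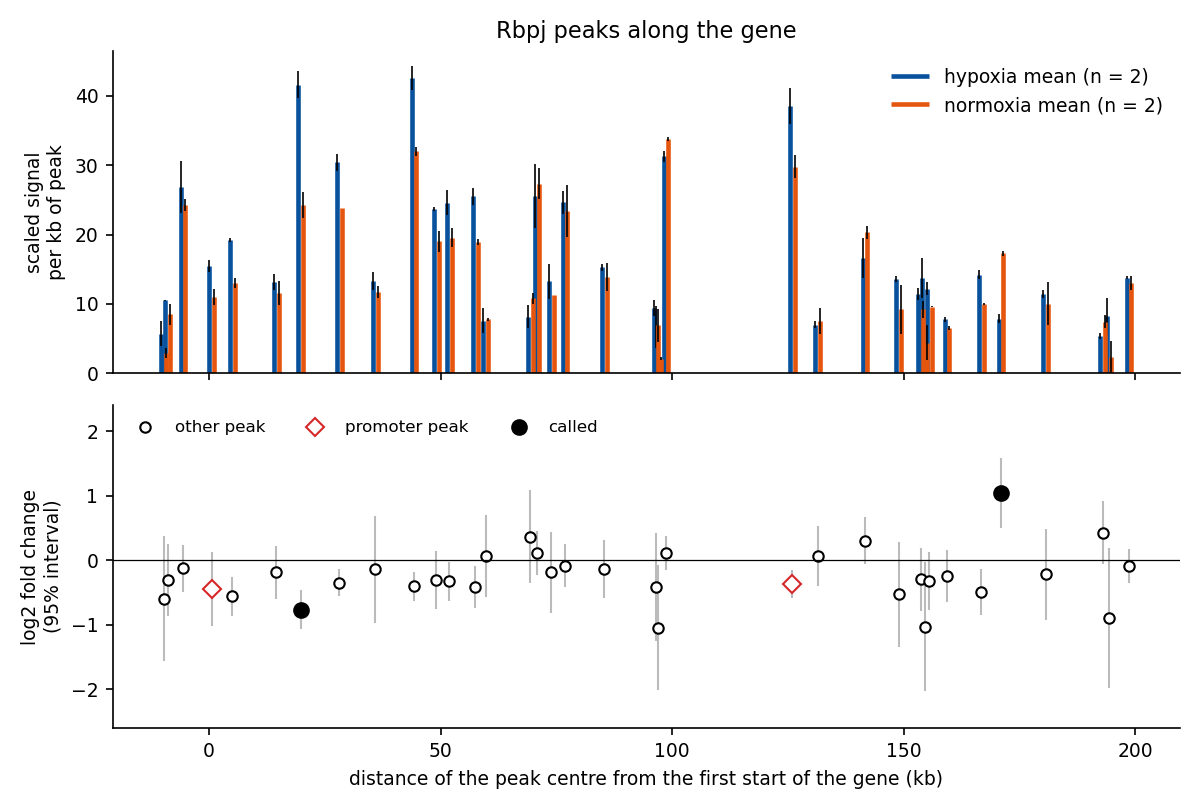
The 36 Rbpj peaks by the distance of their centre from the first start of the gene in kb, with the scaled signal per kb as group means (top, thin black lines join the 2 replicates) and the log2 fold change with its 95% interval (bottom). Most points lie below zero on both sides of the main promoter, and a single called peak lies above it at 1.05.

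The map of the Rbpj locus shows both sides of the main promoter. Of the 22 peaks before it, 18 were negative (median -0.31) and at an unadjusted p under 0.05, 7 were lower and 0 higher (beside the 16.8% and 12.5% of all peaks given above). Of the 13 peaks after it, 9 were negative (median -0.25), with 2 lower and 1 higher at that level. Summed over all 36 peaks (78.6 kb), Rbpj carried a scaled signal of 1676 and 1725 in hypoxia against 1451 and 1378 in normoxia.

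Among the target genes the Hey2 promoter was the only called peak. Hes1, the classical Notch target, lay under a single 16-kb peak (chr16:30056501-30072500) that covered the whole gene and both flanks, and this was the strongest member peak. It gave 772 and 739 in hypoxia against 713 and 725 in normoxia. The groups were close together without overlap, and the log2 fold change was -0.07 (SE 0.08, limma adjusted p = 0.590), with a 95% interval from -0.23 to 0.09. The direction at Hes1 depended on scaling, with -0.55 as deposited, 0.22 at equal totals, 0.21 under quantile scaling and 0.49 under cyclic loess, where it was called higher (adjusted p = 3e-06).

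The Hey2 promoter peak (chr10:30841901-30844900) fell from 138 and 134 in hypoxia to 83.8 and 102 in normoxia. Hey2 encodes a repressor best known from the heart and vessels. The log2 fold change was -0.55 (SE 0.13, limma adjusted p = 0.00362). The peaks of like signal had a median of -0.29 and a 5th percentile of -0.67, so the drop at Hey2 lay inside their range. The call was lost at equal totals (-0.26, adjusted p = 0.108), under quantile scaling (-0.27, adjusted p = 0.182) and under cyclic loess (-0.28, adjusted p = 0.143). Without normoxia library 1 the log2 fold change was -0.41. The only other Hey2 peak, a weak one downstream (chr10:30824901-30825600), gave 8.73 and 8.86 against 11.1 and 17.7 (0.62, SE 0.28, adjusted p = 0.136).

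Hey1, the related repressor, had a single peak over its promoter (chr3:8664201-8668800), with 200.2 and 193 in hypoxia against 142 and 164 in normoxia. The groups did not overlap (-0.36, SE 0.11), but the adjusted p of 0.0275 in limma missed the threshold. Heyl had a weaker promoter peak (chr4:123231601-123234200) with 39.9 and 25.2 against 20.8 and 27.9, where the groups overlapped (-0.38, SE 0.21, adjusted p = 0.233). Its strongest other peak, over an exon (chr4:123237801-123240300), gave 75.8 and 63.7 against 53.7 and 50.5 (-0.41, SE 0.15, adjusted p = 0.0598).

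Because the direction at Hes1 followed the scaling, the other promoters were also set against it within each library, in ratios that a single factor per library leaves unchanged. The Jag1 promoter carried 0.400 and 0.392 of the Hes1 signal in hypoxia and 0.260 and 0.275 in normoxia. Hey2 went from 0.179 and 0.181 to 0.117 and 0.141, and Hey1 from 0.259 and 0.261 to 0.199 and 0.227. In all of them the normoxia ratios were below the hypoxia ratios. Hes1 had the least negative fold change of the 13 promoter peaks (-0.07), so a fall of the mean ratio follows from choosing it. The ratios give the size of the gap to Hes1 and not which promoter changed. Heyl did not separate, at 0.0517 and 0.0341 against 0.0292 and 0.0385.

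By role, the medians of the log2 fold change were -0.08 for receptors (40 peaks), -0.11 for ligands (12), -0.30 for Rbpj (36) and -0.36 for targets (9). The SD between replicates was 0.085, 0.077, 0.058 and 0.088 for a different measure, the median log2 scaled signal of each role in a library. In the fold-change medians, receptors and ligands were close to each other, and Rbpj and the targets lay lower. The SDs belong to the other measure, so they cannot show whether these gaps exceed the replicate spread. On that other measure the ligands did not go with the receptors. The library medians of ligands, Rbpj and targets were lower in both normoxia libraries than in both hypoxia libraries, while those of receptors overlapped. These are descriptions over members without a test. By fold change, the order of the 4 roles was the same on the values as deposited (-0.54, -0.58, -0.75 and -0.84) and at equal totals (0.21, 0.18, -0.03 and -0.07). Under quantile scaling (-0.04, -0.10, -0.23 and -0.16) and cyclic loess (-0.04, -0.11, -0.25 and -0.17) Rbpj was lowest. The target median, over 9 peaks, was -0.07 without hypoxia library 1 and -0.18 without normoxia library 1. Over promoter peaks alone the medians were -0.23 for receptors (5), -0.37 for ligands (2), -0.41 for Rbpj (2) and -0.37 for targets (4).

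The signal was also summed over the peaks of each gene, which cover the same bases in all libraries. Both normoxia sums were below both hypoxia sums in 9 of the 10 genes (57.1% of 18176 coding gene windows), Notch3 being the exception. The log2 ratio of the sums was -0.44 for Hey2, -0.39 for Jag1, -0.37 for Hey1, -0.36 for Heyl, -0.27 for Rbpj, -0.23 for Notch1, -0.13 for Dll1, -0.10 for Notch3 and -0.07 for Notch2 and for Hes1, against a median of -0.17 over all such windows. With 2 libraries against 2 the exact permutation test (two-sided) cannot go below p = 0.33, which was reached for all of these genes but Notch3 (exact p = 0.667). At equal totals 1 gene kept this separation.

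The promoters of 37 other genes of the pathway were examined to see whether the rest of the machinery behaved alike. All 37 had a promoter peak, 52 peaks in all. Limma called 10 lower (19.2%, beside the share of 16.7% for all promoters given above) and 0 higher (3 at an unadjusted p under 0.05, beside 3.88% of all promoters, and 0 in edgeR), and 41 of the 52 were negative, with a median of -0.32 against -0.27 for all promoter peaks. Without the 4 peaks assigned to hypoxia only, 9 of 48 were called lower (18.8%), against 17.0% of all promoter peaks of both groups. Of the 29 of these with a mean deposited signal of at least 50, 8 were called lower (27.6%), against 27.1% of all such promoter peaks. The calls by role below are to be read beside these shares. Without either hypoxia library, or without the trend term, 0 were called. The count followed the scaling, with 30 lower as deposited, 2 at equal totals and 1 each under quantile scaling and cyclic loess.

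Coactivators, which carry RBPJ from a silent to an active state, held 3 of these calls among 11 peaks. The acetyltransferase gene Kat2b fell at 2 promoter peaks, from 223 ± 5.47 to 135 ± 13.6 (hypoxia to normoxia, mean ± SD of 2 libraries, here and in what follows), or -0.73 on the log2 scale (limma adjusted p = 7.4e-05), and from 275 ± 14.4 to 207 ± 2.89 (-0.41, adjusted p = 0.00668). The Mastermind gene Maml2 fell from 315 ± 28.5 to 222 ± 0.87 (-0.50, adjusted p = 0.00124).

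Ubiquitin ligases, which control the turnover and uptake of receptors and ligands, held 4 calls among 12 peaks. The Deltex genes Dtx4 and Dtx3 fell from 187 ± 7.75 to 122 ± 22.0 (-0.63, limma adjusted p = 0.000877) and from 207 ± 4.63 to 145 ± 5.24 (-0.50, adjusted p = 0.00228). The Neuralized gene Neurl1a fell at 2 adjoining peaks, from 33.9 ± 3.79 to 19.6 ± 2.15 (-0.76, adjusted p = 0.00961) at the stronger of them. The other is a weak piece assigned to hypoxia only (13.4 ± 1.75 to 3.78 ± 0.55), so its drop follows from that assignment. These 2 adjoining peaks do not count as independent.

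The remaining calls were spread over roles. Among 4 peaks of inhibitors, the endocytic adaptor gene Numbl fell from 267 ± 10.8 to 177 ± 7.16 (-0.59, limma adjusted p = 0.000342). Among 5 peaks of glycosyltransferases, the fringe gene Lfng, whose enzyme tunes which ligand a receptor answers to, fell from 306 ± 11.8 to 222 ± 19.2 (-0.46, adjusted p = 0.00246). Among 8 peaks of the proteases that cleave the receptor, the γ-secretase subunit gene Ncstn fell from 131 ± 12.0 to 92.7 ± 3.76 (-0.50, adjusted p = 0.00739), at a peak it shares with the start of Copa.

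Receptor, ligand, corepressor and further target genes of this list had no call. The 4 ligand peaks (Jag2, Dll3, Dll4 and Dlk1) had a median of 0.13, from -0.32 to 0.61, and mean deposited signals of 10.5 to 28.9, beside 258 at Jag1. The 3 peaks of Hes5, Hes6 and Hes7 had a median of -0.16, and the 4 corepressor peaks a median of -0.05.

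**Figure D5:**
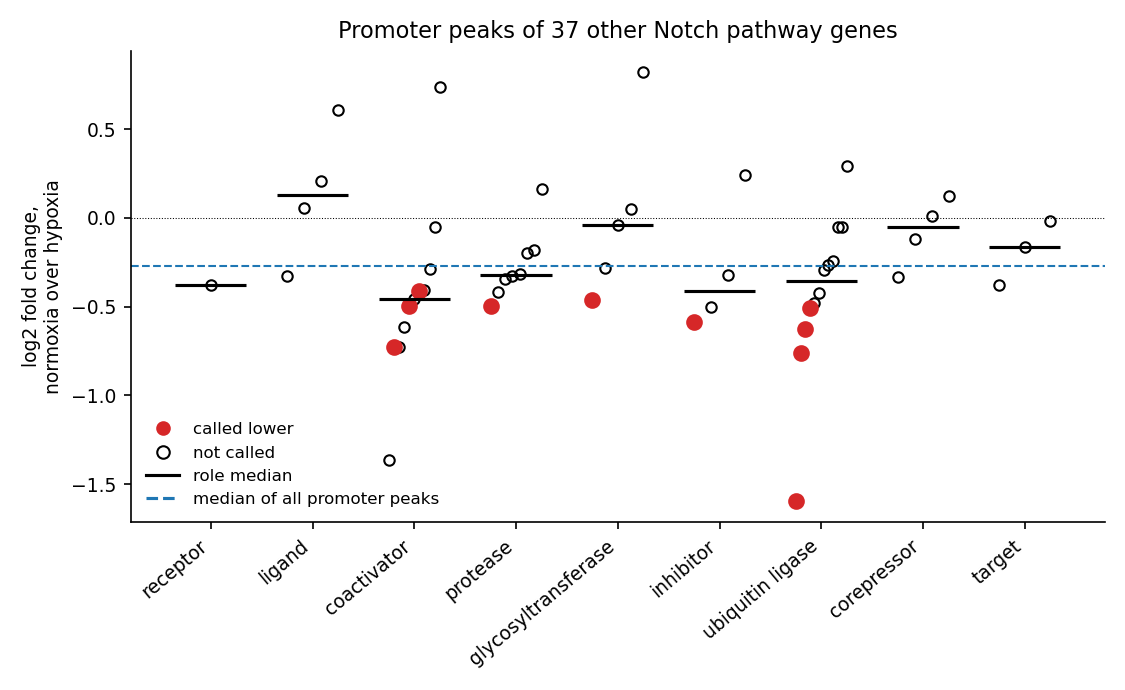
Log2 fold change (normoxia over hypoxia) of the 52 promoter peaks of 37 other Notch pathway genes by role, with called peaks in red, role medians as bars and the median of all promoter peaks (-0.27) as a dashed line. All 10 red points lie below the dashed line, and the median of the 4 ligand peaks lies above zero.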

How the data were processed

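Per the labels and the study's methods, the authors mapped reads to mm10 (bowtie2), took out duplicates (Picard) and called peaks with chromstaR in differential mode between the groups, which assigns each peak to both groups or to 1 of them (bin 300 bp, step 100 bp, mapping quality 15). They deposited a signal per peak and library under the name RPKM. Peak width does not enter it: 100% of a library's values were whole multiples (within 0.001 of a read) of 10000000 over a whole number, taken as the library total. Whether these reads count fragments or read ends is not known, so no binomial interval was given.

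Scaled signals were tested with limma 3.58.1 in R 4.3.3 (lmFit and eBayes, trend and robust options) as log2(value + 1), after relative log expression size factors. Tests were two-sided, and p-values were adjusted by Benjamini-Hochberg across the 128055 peaks. Fold changes on this scale understate the change of weak peaks. EdgeR 4.0.16 on recovered reads was an alternative. The fit was tested on simulated data first. The text names all promoter peaks of the members, the strongest other peak of each, every called member peak, and called promoter peaks of the wider list. Members, lists and tests were chosen with earlier results of these data known. P-values rest on 2 libraries per group, with the variance of each peak moderated by limma towards that of peaks of like signal. They thus do not measure the spread between the libraries of that peak alone. Replicate numbers were not shown to pair libraries across groups, and no library was dropped or imputed in the main test.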

Additional observations from a re-analysis of the deposited data

How the results depend on the processing

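The median of the member peaks varied in size with the scaling and turned positive only at equal totals. The median of the member promoters stayed negative throughout. The calls rested on the variance model and on both hypoxia libraries. Over the member peaks, the counts called lower and higher were 4 and 1 in the report, 35 and 0 as deposited, 1 and 4 at equal totals, 0 and 1 under quantile scaling and 2 and 3 under cyclic loess. They were 4 and 0 with a pseudocount of 0.1, 7 and 1 among the 87 members with a mean of at least 5, 0 and 0 without trend, 4 and 0 without robust estimation, 6 and 2 in edgeR, and 11 and 2 at an FDR under 0.05. Leaving out a library gave 0 to 8 lower and 0 higher. Member promoters called lower numbered 2 in the report, 9 as deposited, 1 at equal totals, 0 under quantile scaling and cyclic loess, 0 without trend, 4 at an FDR under 0.05 and 0 to 3 with a library left out. Cyclic loess called 1 promoter higher, that of Hes1. Wider pathway promoters called lower numbered 10 in the report, 30 as deposited, 2 at equal totals, 1 under quantile scaling, 1 under cyclic loess, 0 without trend, 17 at an FDR under 0.05 and 0 to 12 with a library left out. Higher calls there were 0 in the report, 3 at equal totals, 1 under quantile scaling, 1 under cyclic loess and 2 at an FDR under 0.05.

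The median log2 fold change of the members was -0.63 as deposited, 0.094 at equal totals (reversed), -0.12 under quantile scaling and -0.12 under cyclic loess. For member promoters it was -0.84, -0.075, -0.15 and -0.14 in the same order. As deposited and at equal totals the role medians were -0.54 and 0.21 for receptors (reversed), -0.58 and 0.18 for ligands (reversed), -0.75 and -0.026 for Rbpj, and -0.84 and -0.075 for targets. Under quantile scaling they were -0.23 for Rbpj and -0.16 for targets, and under cyclic loess -0.17 for targets. The Rbpj median was -0.23 without peaks assigned to hypoxia only (an alternative chosen after seeing the data), -0.22 with a pseudocount of 5 and -0.22 among peaks with a mean of at least 5. With a library left out it ranged from -0.33 to -0.23, and the target median from -0.42 to -0.069.

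Single peaks changed sign at equal totals, under quantile scaling and under cyclic loess, in that order, at the Notch2 promoter (0.055, 0.082 and 0.073), the Notch2 exon peak (0.23, 0.31 and 0.36), the Jag1 exon peak (0.19, 0.18 and 0.17), the Dll1 promoter (0.18, 0.11 and 0.11) and Hes1 (0.22, 0.21 and 0.49). The Rbpj intron peak of 8.3 kb (0.018 and 0.039) and the main Rbpj promoter (0.0043 and 0.036) did so under quantile scaling and cyclic loess. At equal totals the outer Notch1 promoter was at 0.11 and the Notch3 promoter at 0.10. With a library left out, the outer Notch1 promoter ranged from -0.37 to 0.013 and the Notch3 promoter from -0.54 to 0.15. At equal totals the summed signal kept its separation in 1 gene, and the log2 ratio turned to 0.065 for Notch1, 0.22 for Notch2, 0.19 for Notch3, 0.16 for Dll1, 0.025 for Rbpj and 0.22 for Hes1. The causes were not tested.

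Same-numbered libraries of the 2 groups did not deviate together (correlation of deviations 0.011 over all peaks), so the numbers were not taken as pairs. A replicate block raised the member calls to 7 lower and 2 higher, with 3 promoters.

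With 2 libraries a group, leaving a library out leaves a lone sample that is assumed to vary like the others. Weak members rest on few reads: 20 members had a mean signal under 10.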
